A study of Mus musculus with 6 samples.

Results

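The interferon regulatory factors are transcription factors that share a tryptophan-rich DNA-binding domain and bind GAAA-containing elements in the promoters of interferons and interferon-stimulated genes. The 8 mouse genes Irf1, Irf2, Irf3, Irf4, Irf5, Irf7, Irf8 and Irf9 were taken by symbol from the deposited table of read counts, which holds 57010 gene identifiers. All 8 were among the 16439 genes with enough reads to be tested. Expression was measured by RNA sequencing in activated CD8+ T cells with and without a conditional deletion of MondoA, the glucose-responsive transcription factor encoded by Mlxip. Mice were of the C57BL/6 strain and 8 weeks old. Their naive CD8+ T cells, taken from lymph nodes and spleen, were stimulated by anti-CD3/CD28 over 24 hours. All 6 libraries came from MondoAfl/fl animals, 3 without Cre (WT) and 3 carrying CD4cre (KO, genotype MondoAfl/flCD4cre). The CD4 promoter that drives this Cre is active in developing T cells, and effects of Cre itself cannot be told apart from those of the deletion.

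In T cells the family members have separate roles. IRF9 works with STAT2 in the complex ISGF3, which carries the signal of type I interferon to the nucleus, and IRF7 is itself induced by that complex and amplifies the response. IRF1 is the activator induced by interferon gamma, and IRF2 competes with it for the same sites. IRF4 rises with the strength of T cell receptor signalling and works with BATF and JUN proteins in effector CD8 T cells, and IRF8 shares those partners. IRF3 and IRF5 wait in the cytoplasm until nucleic acid sensors and their kinases activate them.

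Total counts were between 26150420 (WT 3) and 34447230 (KO 3) per library. Levels are given as CPM, the reads of a gene relative to all reads of its library after TMM scaling, in the order of replicates 1, 2 and 3. Cd8a was between 456 and 687 CPM and Cd4 between 0.995 and 4.84 CPM. Cd4 was 3.71 ± 0.982 CPM in WT against 1.80 ± 0.701 CPM in KO, and the NK cell marker Klrb1c 5.78 ± 0.819 CPM against 3.44 ± 1.14 CPM (SD, n = 3 each), both without overlap. All 8 markers of CD8 T cells were higher in mean in KO (median log2 fold change 0.19), against 47.2% of all genes. For 3 of them the groups did not overlap, against 7.8% of all genes in that direction. None of these markers passed the edgeR test, and their part in the values below was not tested. Mlxip, the deleted gene, was 129 ± 11.1 CPM in WT and 86.0 ± 6.54 CPM in the KO libraries (SD, n = 3 each), with no overlap, over the whole gene. Mlxip did not pass edgeR's quasi-likelihood test either (Benjamini-Hochberg adjusted p = 0.125). Its target Txnip, an arrestin-like inhibitor of glucose uptake, was 222 ± 9.32 CPM in WT and 76.6 ± 3.40 CPM in the KO libraries (SD, n = 3 each). WT 3 and KO 2 were female by Xist and Y-linked genes and the other 4 libraries male, so each genotype held 1 female library. KO 3 stood apart within its genotype in the interferon-stimulated genes. The median deviation of 24 such genes from their own 6-library means was 0.59 in KO 1 and 0.60 in KO 2 on the log2 scale. In KO 3 it was -0.34, among the WT values of -0.28, -0.16 and -0.36. Over 12177 genes the chi-square per gene, larger where a pair of libraries differs more, was 24.6, 19.2 and 26.8 between KO 3 and WT 1, 2 and 3. Between KO 3 and KO 1 it was 40.4, and between KO 3 and KO 2 28.8. Between KO 1 and KO 2 it was 32.8, so on this measure KO 2 was nearer to KO 3 than to KO 1. The largest value, 60.7, was between WT 3 and KO 1, so this measure did not single out KO 3. Results that rest on KO 3 are given with and without it. It was singled out by its low interferon-stimulated genes, so a value without it depends on the outcome that chose it and is a description, not support. The labels do not say whether each library came from its own mouse, so p-values measure only the spread between these samples.

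Promoter sequences are shown for Irf1, Irf2 and Irf8, where the windows searched hold an exact interferon-response motif, and for Irf7, the member whose level differed most. Windows from 250 bases before to 50 bases after each RefSeq start (GRCm38.p6) were searched on both strands. There were 11 such windows for the 8 genes. Capitals mark the gamma-activated sequence TTCNNNGAA, a site for STAT proteins, and the interferon-stimulated response element, searched as a pair of GAAA with any 2 bases between them, the site of ISGF3 and IRF proteins. Each line runs 5′ to 3′ on the gene's own strand and stops before any annotated exon of the gene.
Irf1 (chr11:53769898-53769958, + strand): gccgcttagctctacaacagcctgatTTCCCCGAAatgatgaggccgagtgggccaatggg
Irf2 (chr8:46739495-46739555, + strand): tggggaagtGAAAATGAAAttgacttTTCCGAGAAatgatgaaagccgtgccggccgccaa
Irf8 (chr8:120736161-120736221, + strand): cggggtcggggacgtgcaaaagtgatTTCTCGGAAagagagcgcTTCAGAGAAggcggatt
Irf7 (chr7:141266482-141266674, - strand): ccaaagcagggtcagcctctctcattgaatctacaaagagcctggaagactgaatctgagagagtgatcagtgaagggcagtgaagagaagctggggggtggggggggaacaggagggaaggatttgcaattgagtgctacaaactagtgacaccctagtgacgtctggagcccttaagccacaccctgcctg
The gamma-activated sequence stood in 3 of the 11 Irf windows (Irf1, Irf2 and Irf8) and in 8.3% of all 32851 promoter windows. The first letter of the match lay 90 bases before the start in Irf1, 224 in Irf2, and 171 and 153 in Irf8. The response element stood in 1 Irf window (Irf2, 241 bases before the start) and in 3.44% of all windows. The E-box CACGTG, the core of the sites bound by MondoA with its partner MLX, was in 0 of the 11 windows and in 7.15% of all windows. A match describes letters only, and its absence from these windows says nothing about binding elsewhere.

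The question for the family is which members differ in activated CD8 T cells without MondoA. None of them passed: 0 of the 8 members reached an adjusted p of 0.05 in edgeR's quasi-likelihood fit (Benjamini-Hochberg, all genes). Over all genes tested 0.0122% passed, namely 2 genes. At an unadjusted p under 0.05 there were 2 members, Irf7 and Irf9, both higher in KO, where 10.8% of all genes reached that level in either direction. DESeq2 called 0 members, and 1.05% of the genes it tested. With a sex term 0 members and 0.0365% of genes passed in edgeR, and without WT 1 it was 0 members and 0.0178%. The KO and WT libraries did not overlap for 2 members, Irf2 and Irf9, both higher in KO, against 16.4% of all genes. Irf7 and Irf9, the members of interferon feedback, had the highest log2 fold changes of the 8 and Irf5 the lowest, and none of these passed.

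**Figure D1:**
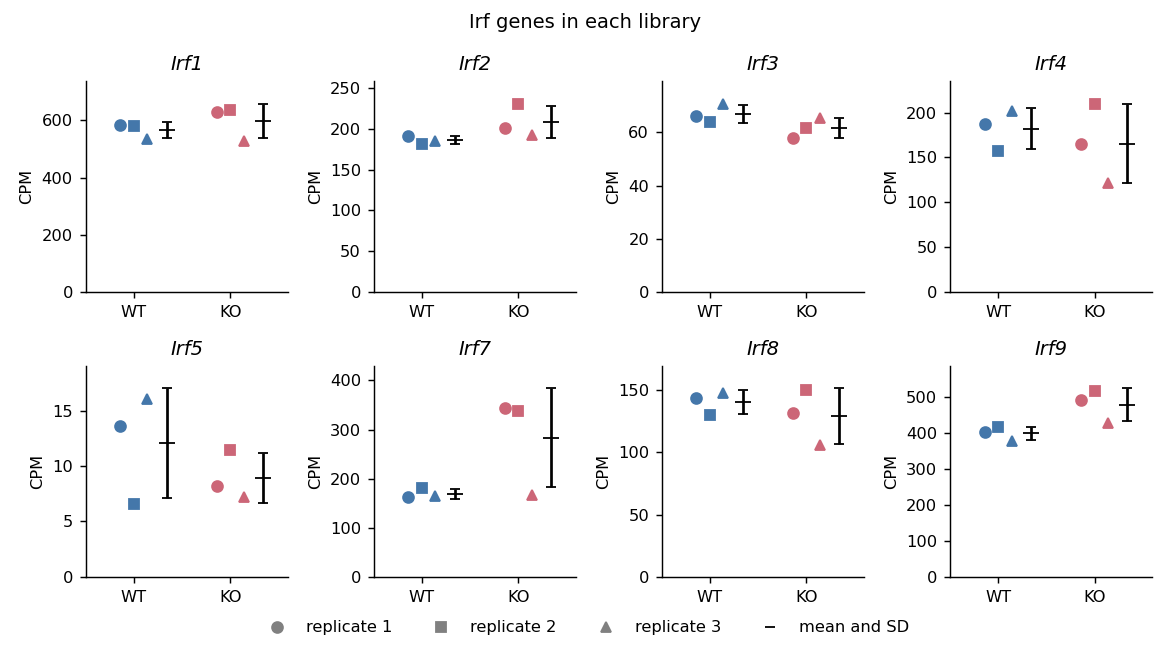
CPM (vertical axes, from 0) of each Irf gene in the 3 WT and 3 KO libraries, with marker shape for the replicate number and a bar for mean and SD. Irf7 is near 340 CPM in KO 1 and KO 2 and 167 CPM in KO 3, beside 162 to 180.4 CPM in WT.

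Irf7, the amplifier of type I interferon production, was split within the KO group. It stood at 162, 180.4 and 164 CPM in WT, and KO gave 345, 338 and 167 CPM. KO 1 and KO 2 were each above every WT library, while KO 3 lay inside the WT range, so the groups overlapped. The fitted difference was 1.68-fold higher in KO (95% interval 1.19 to 2.35), or 0.74 on the log2 scale (standard error 0.22), and edgeR's quasi-likelihood test gave a Benjamini-Hochberg adjusted p of 0.354. Without KO 3 the log2 fold change was 1.02 (standard error 0.0895) and Irf7 passed, at a Benjamini-Hochberg adjusted p of 0.00197 in edgeR, though KO 3 was chosen by values of the same kind. In that setting 0.472% of genes passed in either direction and 0.384% were called higher, and Irf7 was the 1 member called. Leaving out KO 1 or KO 2 instead gave log2 fold changes of 0.58 and 0.60, and Irf7 did not pass with any of the other 5 libraries left out. Irf7 also passed without a filter on low counts, at a log2 fold change of 0.75 (edgeR, Benjamini-Hochberg adjusted p = 9.55e-12). There 1.76% of all genes passed and 0.842% were called higher. Its standard error was 0.0958 there against 0.22 with the filter, from the same libraries, so the smaller p is no added evidence.

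Irf9, the DNA-binding subunit of ISGF3, was highest in the same KO libraries, by a smaller margin. It was 401, 415 and 378 CPM in WT and 489, 516 and 428 CPM in KO. All 3 KO libraries lay above all 3 WT libraries, with KO 3 only slightly above WT 2. The difference was 1.20-fold (95% interval 1.05 to 1.37), with a Benjamini-Hochberg adjusted p of 0.373 in edgeR's quasi-likelihood test. Without KO 3 the log2 fold change went from 0.26 to 0.34 and still missed the threshold (edgeR, Benjamini-Hochberg adjusted p = 0.185).

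Irf1, the activator induced by interferon gamma, was the most abundant member and differed little between genotypes. Its values were 583, 582 and 534 CPM in WT and 629, 636 and 528 CPM in KO. KO 1 and KO 2 were the highest libraries and KO 3 the lowest. The log2 fold change was 0.077 (95% interval -0.12 to 0.27). Irf2, its competitor, was 191, 181 and 185 CPM in WT and 201, 231 and 192 CPM in KO. The KO libraries were all above the WT libraries, but KO 3 exceeded WT 1 by about a single CPM. The log2 fold change of Irf2 was 0.16 (95% interval -0.031 to 0.36; edgeR quasi-likelihood test, Benjamini-Hochberg adjusted p = 0.523). The promoter stretches of both genes, shown above, hold a gamma-activated sequence.

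Irf4, which is induced through the T cell receptor, did not differ between genotypes beyond its spread. It was 187, 158 and 202 CPM in WT and 165, 209.9 and 122 CPM in KO. KO 2 was the highest library and KO 3 the lowest. The log2 fold change was -0.14 (95% interval -0.52 to 0.24), and it was 0.043 without KO 3 and -0.35 without KO 2. Irf8 showed the same order of the KO libraries, at 143, 129.7 and 148 CPM in WT and 131, 149.9 and 106 CPM in KO. Its log2 fold change was -0.12 (95% interval -0.39 to 0.15), and 0.0072 without KO 3. Of the 5 activation markers, Cd69, Il2ra and Myc were also lowest in KO 3, at 254, 141 and 63.6 CPM, where the lowest of the other 5 libraries stood at 298, 179 and 75.4 CPM. The others, Nr4a1 and Egr2, were not lowest there, at 12.3 and 8.13 CPM in KO 3 against 11.1 CPM in WT 1 and 8.07 CPM in KO 1. The median deviation of the 5 activation markers was -0.42 in KO 3 and between -0.18 and 0.31 in the other libraries. Their part in the values of Irf4 and Irf8 was not tested.

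Irf5 and Irf3, the members activated by sensing pathways, were lower in mean in KO. Irf5 was scarce, at 13.6, 6.55 and 16.0 CPM in WT and 8.17, 11.5 and 7.20 CPM in KO. The WT libraries spread widely and WT 2 was the lowest of the 6. The log2 fold change was -0.43 (95% interval -1.09 to 0.23), and it ran from -0.72 without WT 2 to -0.17 without WT 3. Irf3 was 66.0, 63.8 and 70.7 CPM in WT and 57.9, 61.5 and 65.4 CPM in KO. The groups overlapped, and the log2 fold change was -0.12 (95% interval -0.31 to 0.074). In GENCODE M21 the exons of Irf5 share 14.1% of their bases with Tnpo3 on the opposite strand, and those of Irf3 share 2.56% with Bcl2l12. Irf1 shares 3.4% with Gm17334 and Irf7 1.19% with Phrf1, also on the opposite strand, and Irf9 2.28% with Rnf31 on the same strand. The strand setting of the counting is not given in the sources used here, so reads there cannot be assigned to 1 gene.

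Irf5 and Irf8 are also expressed by B cells and myeloid cells, whose markers were present at low levels. The 7 B cell markers summed to 75.4, 58.4 and 98.8 CPM in WT and to 72.7, 60.0 and 30.7 CPM in KO. All 7 were lower in mean in KO (median log2 fold change -0.42), led in level by Cd79a. The 7 tested markers of myeloid and dendritic cells summed to 33.8, 19.9 and 43.2 CPM in WT and 16.5, 28.7 and 28.6 CPM in KO. Of the 10 listed, Lyz2, Csf1r and Xcr1 had at most 27 reads in any library and were not tested. Of the 7 tested, 6 were lower in mean in KO and 1 higher (median log2 fold change -0.60). The higher one was Cd68, the most abundant of them, at 12.7 CPM in WT and 13.6 CPM in KO. WT 3 was the highest library for both sums and for Irf5, and KO 3 the lowest for the B cell sum. Irf8 was highest in KO 2 instead, at 149.9 CPM against 148 CPM in WT 3, and lowest in KO 3. Spi1, the myeloid and B cell factor PU.1 that pairs with IRF4 and IRF8, was 6.79, 2.55 and 8.22 CPM in WT and 3.67, 3.60 and 3.77 CPM in KO. The part of these cells in the values of Irf5 and Irf8 was not tested, and in bulk RNA fewer cells of a type cannot be told apart from less RNA per cell.

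**Figure D2:**
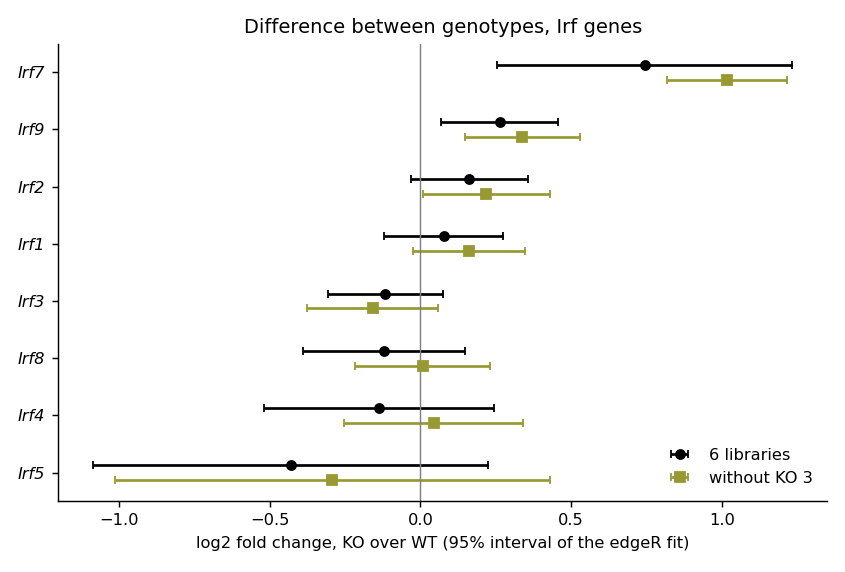
Fitted log2 fold change of KO over WT for each Irf gene (horizontal axis) with its 95% interval, from all 6 libraries and without KO 3. With 6 libraries the intervals of Irf7 and Irf9 lie above 0 and the other 6 include 0.

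Per kilobase of exon, the family was dominated by Irf1 in both genotypes. Levels on this scale (CPM per kb of merged GENCODE M21 exons) were 142 ± 6.99 in WT and 150.3 ± 15.2 in KO for Irf1 (SD, n = 3 each). Irf9 followed with 73.9 ± 3.48 in WT and 88.7 ± 8.40 in KO. Irf7 came next, with 44.7 ± 2.63 in WT and 75.0 ± 26.7 in KO (SD, n = 3 each). The order of the means then ran Irf4, Irf2, Irf8, Irf3 and Irf5 in both genotypes, down to 4.16 ± 1.70 in WT for Irf5. In WT the ranges of neighbours overlapped for 1 pair, Irf8 and Irf3. In KO they overlapped for 3 pairs, Irf9 with Irf7, Irf4 with Irf2, and Irf8 with Irf3. With the longest transcript as the length, the first 3 and last 2 places were unchanged and Irf4 moved from place 4 to place 6. In KO 1 the Irf7 level of 91.2 was level with that of Irf9 at 90.9.

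Irf7 took a larger share of the family's summed level per kb in 2 of the 3 KO libraries. Its share was 11.5%, 13.0% and 12.0% in WT and 20.8%, 19.4% and 12.8% in KO. KO 3 again lay within the WT range. The summed level itself was 372, 367 and 361 in WT and 439, 462 and 343 in KO. The share of Irf1 was 38.8 ± 1.43% in WT and 36.4 ± 2.05% in KO (SD, n = 3 each).

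**Figure D3:**
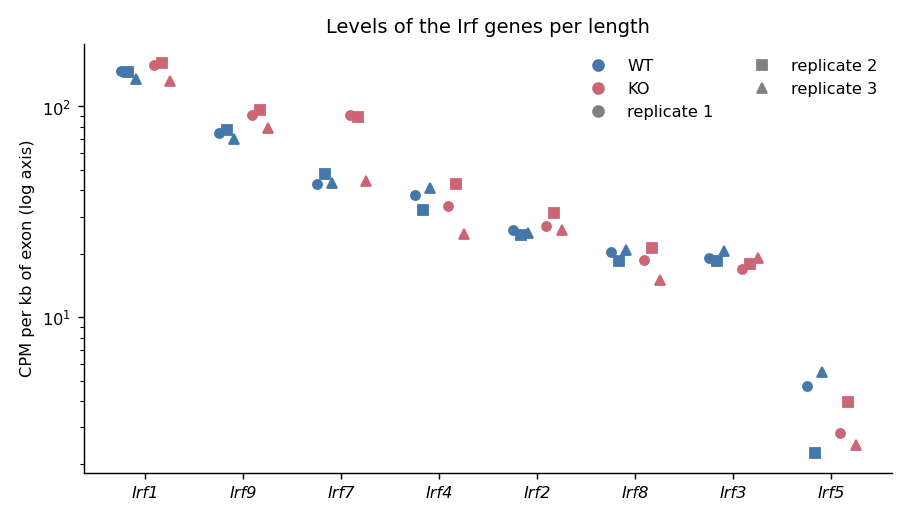
Level of each Irf gene in CPM per kb of exon (vertical log axis), with WT and KO libraries side by side and marker shape for the replicate number. Genes are ordered by their WT mean, from Irf1 at 142 to Irf5 at 4.16.

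Ratios within a library compare members that act against or beside each other and do not depend on scaling. The log2 ratio of Irf7 to Irf3 reads was 1.30, 1.5 and 1.22 in WT, and 2.57, 2.46 and 1.35 in KO. KO 3 lay below WT 2, so the groups overlapped, and the difference of 0.79 had a two-sided exact permutation p of 0.2 (0.45 after Benjamini-Hochberg adjustment over the 3 ratios). The ratio of Irf1 to its competitor Irf2 was 1.61 ± 0.0778 in WT and 1.52 ± 0.106 in KO on the log2 scale (SD, n = 3 each; exact permutation p = 0.3, adjusted 0.45). The ratio of Irf4 to Irf8 was 0.37 ± 0.0859 in WT and 0.34 ± 0.143 in KO (SD, n = 3 each; exact permutation p = 0.8, adjusted 0.8). With 3 libraries against 3 the smallest p this test allows is 0.1.

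The pathway around the family was read from 7 lists, in which 0 genes passed edgeR's quasi-likelihood test after Benjamini-Hochberg adjustment over all genes. Over all genes tested the median log2 fold change was -0.016 and 47.2% were higher in KO. For the Irf family it was -0.019, with 4 members above 0 and 4 below.

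Of the 16 genes upstream, sensors of nucleic acids and the kinases that activate IRF proteins, 10 were higher and 6 lower in mean (median 0.049). With library size scaling alone it was 7 higher and 9 lower (median -0.018), so this list has no direction that holds under both scalings. Ifih1, which encodes the RNA sensor MDA5, was 50.2, 55.6 and 53.2 CPM in WT and 103, 114 and 59.8 CPM in KO, with no overlap and a log2 fold change of 0.80. Ddx58, encoding the sensor RIG-I, was 262, 277 and 258 CPM in WT and 403, 413 and 269 CPM in KO, with KO 3 between WT 1 and WT 2. Ikbke, a kinase that phosphorylates IRF3 and IRF7, was lower, at 196, 224 and 210.3 CPM in WT and 169.8, 172 and 160.5 CPM in KO. Its log2 fold change was -0.33 (standard error 0.0813), and the groups did not overlap. Irak4, the kinase below MYD88, had a log2 fold change of -0.27 and groups that did not overlap either. At an unadjusted p under 0.05 there were 2 higher and 2 lower genes in this list by edgeR (5.05% and 5.77% of all genes), the groups lay apart for 3 higher and 2 lower (7.8% and 8.65% of all genes), and DESeq2 called 1, Ifih1 (1.05% of all genes).

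Of the interferon genes listed, all but Ifng were almost silent, and other interferon genes were not looked at. Ifnb1, Ifna1 and Ifna2 had 0 reads in all 6 libraries, which allows at most 0.115 CPM in WT 3, the shallowest, and less in the others (3 counts, counting error only). Ifna4 had 2 reads in KO 1, 4 in KO 3 and 0 elsewhere. Ifng, the inducer of Irf1, was 24.8, 56.7 and 14.9 CPM in WT and 81.1, 50.4 and 16.9 CPM in KO. It ranged widely within each group and was lowest in WT 3 and KO 3. The receptor genes Ifnar1, Ifnar2, Ifngr1 and Ifngr2 had log2 fold changes between -0.15 and 0.047. In this list 5 of 10 genes had enough reads, with 3 higher and 2 lower (1 and 4 with library size scaling), and 0 were at an unadjusted p under 0.05 by edgeR or called by DESeq2.

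Among the 7 kinase, STAT and feedback genes 6 were higher and 1 lower (median 0.069), or 4 and 3 with library size scaling (median 0.0020). Stat2, the ISGF3 partner of IRF9, was 405, 432 and 394 CPM in WT and 631, 746 and 406 CPM in KO. Usp18, which damps the type I receptor, was 57.0, 74.5 and 63.1 CPM in WT and 151, 120.4 and 53.9 CPM in KO. In both genes KO 1 and KO 2 were above every WT library and KO 3 was not. The kinase Tyk2 was the lower gene, at -0.31. At an unadjusted p under 0.05 there were 2 higher and 1 lower by edgeR, against 5.05% and 5.77% of all genes, and DESeq2 called 0.

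The 24 interferon-stimulated genes, targets of ISGF3 and IRF7, were all higher in mean in KO, with a median log2 fold change of 0.53. Of these, 20 were at an unadjusted p under 0.05 by edgeR and higher, against 5.05% of all genes. DESeq2 called 4, Cmpk2, Oasl2, Ifi27l2a and Rtp4, and 1.05% of all genes. With the low-count filter removed, 22 of the 24 passed in edgeR, where 1.76% of all genes passed, and also 3 sensing genes, 2 signalling genes and 1 gene each among the interferon and receptor, IRF4-linked and IRF1-linked lists. That is the setting in which the standard error of Irf7 was 0.0958 rather than 0.22. The groups of the 24 genes did not overlap for 2, Oasl2 and Cmpk2, both higher in KO, against 7.8% of all genes in that direction. Cmpk2, a mitochondrial nucleotide kinase, was 85.4, 93.2 and 80.5 CPM in WT and 183, 205 and 107 CPM in KO. Rsad2, encoding the antiviral protein viperin, was 50.8, 62.7 and 45.4 CPM in WT and 132, 149 and 51.6 CPM in KO. Without KO 3, the library that these genes singled out, 20 of the 24 passed by edgeR, all higher. In that setting 0.472% of all genes passed and 0.384% were called higher. With any of the other 5 libraries left out 0 of the 24 passed. Also called without KO 3 were Ifih1, Ddx58 and Tlr7 of the sensors and Stat2 and Usp18 of the signalling genes, each higher. These calls are no independent evidence, since the outcome chose the library. This list was drawn up with earlier results on such genes known, so its direction is no independent evidence.

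The 11 genes linked to IRF1, mostly for antigen presentation, were also all higher in mean with every library included, with a smaller median of 0.11. This did not hold in every setting: without KO 2 it was 6 higher and 5 lower (median 0.017), without KO 1 or WT 3 it was 9 and 2, and with library size scaling 7 and 4 (median 0.040). Their range was 0.020 to 0.45, and 0 were at an unadjusted p under 0.05 by edgeR or called by DESeq2. Psmb8, an immunoproteasome subunit, was 181, 180.4 and 174 CPM in WT and 212, 224 and 179 CPM in KO. Il12rb1, a subunit of the interleukin-12 receptor, was 22.7, 23.9 and 27.1 CPM in WT and 45.1, 32.6 and 22.9 CPM in KO. The list's median deviation was 0.13, 0.19 and -0.19 in the KO libraries, and between -0.082 and -0.0032 in WT.

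**Figure D4:**
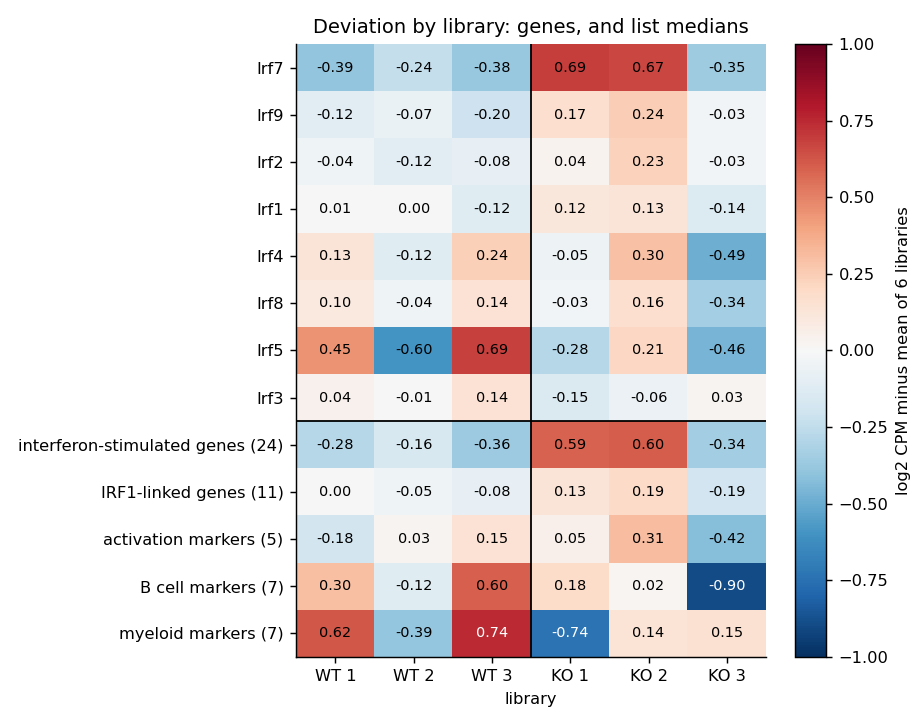
Deviation of log2 CPM from the 6-library mean (colour and printed value) for each Irf gene above the line and as list medians below it, by library. Irf7 and the interferon-stimulated genes are above 0.5 in KO 1 and KO 2 and below 0 in the other 4 libraries, while Irf4 and Irf8 are lowest in KO 3.

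Of the 15 genes for partner proteins of the family, 10 were higher and 5 lower (median 0.035). It was 7 higher and 8 lower with library size scaling (median -0.032) and without WT 1 (median -0.016), so the direction turned. The corepressor gene Irf2bp2, whose product binds IRF2, was 162, 169 and 163 CPM in WT and 183, 198 and 191 CPM in KO, with no overlap between the groups. Its relative Irf2bpl had a log2 fold change of 0.31 and Ikzf1, encoding the lymphoid factor Ikaros, of 0.21. The IRF4 partners Batf (-0.077) and Junb (0.012) were within the spread. At an unadjusted p under 0.05 there were 3 higher and 0 lower by edgeR, against 5.05% and 5.77% of all genes, and DESeq2 called 0.

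Genes linked to IRF4 in activated CD8 T cells did not follow 1 direction, with 8 of 12 higher and 4 lower (median 0.13, and 0.22 without KO 3). Foxo1, a factor of naive and memory cells, was 209.8, 217 and 201 CPM in WT and 244, 263 and 263 CPM in KO, with no overlap. Eomes, a T-box factor of memory CD8 T cells, had a log2 fold change of 0.40 and the glycolytic enzyme gene Aldoa of 0.19. Pdcd1, encoding the inhibitory receptor PD-1, was low, at 3.62 ± 0.857 CPM in WT and 2.43 ± 0.634 CPM in the KO libraries (SD, n = 3 each). By edgeR 3 were higher and 0 lower at an unadjusted p under 0.05 (5.05% and 5.77% of all genes), and DESeq2 called 0.

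**Figure D5:**
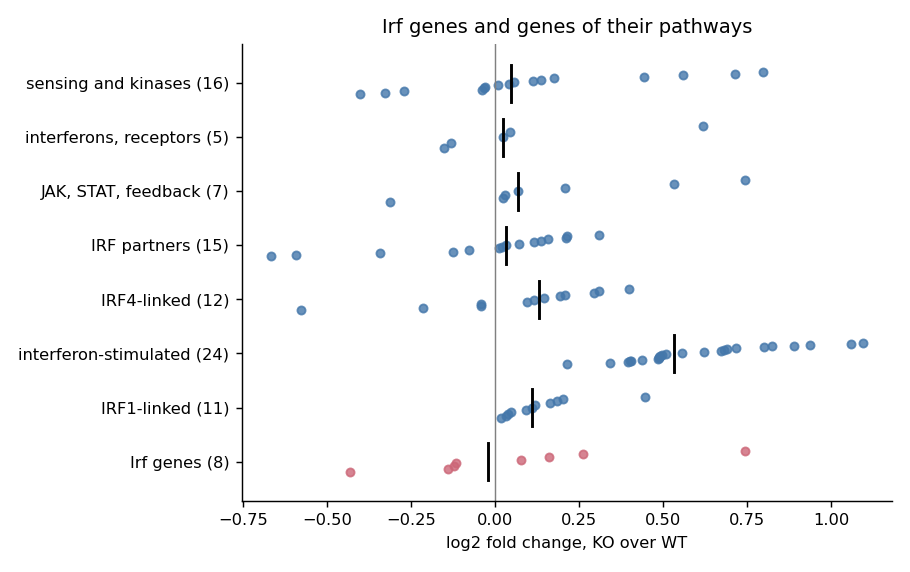
Log2 fold change of KO over WT (horizontal axis) of every tested gene in the 7 pathway lists and of the 8 Irf genes, 1 point per gene, with a bar at each median. All 24 interferon-stimulated genes lie above 0 (median 0.53), and the Irf genes spread from -0.43 to 0.74.

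Across libraries, 5 members varied more than the typical gene: Irf7, Irf5, Irf4, Irf8 and Irf9. Among 9866 genes with a mean level of 5 CPM or more, the median SD of log2 CPM over the 6 libraries was 0.147. It was 0.530 for Irf7, more than in 98.3% of those genes, and 0.523 for Irf5. Irf3 was the steadiest member, at 0.0971. For each of these 5 the nearest patterns were found by the root mean square difference of log2 deviations over the 6 libraries, among 9146 genes, as a description. Irf7 was nearest to Oasl1 (0.0560), Daxx (0.0648) and Ifih1 (0.0882), of which Oasl1 stands in the interferon-stimulated list and Ifih1 among the sensors. Irf9 was nearest to Lmo4 (0.0148), the cytokine feedback gene Socs3 (0.0293) and the arginine transporter gene Slc7a1 (0.0306). Irf8 was nearest to Myl12b (0.0490), Egr3 (0.0496) and Gbp8 (0.0511), and Irf4 to Kit (0.0632), Unc93b1 (0.0765) and Fam83d (0.0832). Irf5 was nearest to Itga5 (0.135), Casp4 (0.141) and Sema7a (0.147), at distances larger than those of the others. Egr3, an immediate early gene of T cell receptor signalling, had its lowest value in KO 3, as did Myl12b and Gbp8. This follows from choosing them for their likeness to Irf8, so it says nothing more about Irf8.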

How the data were processed

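The deposited table holds raw read counts per Ensembl gene, 1 column for each of 6 libraries, as the authors made it. Tools and assembly named in the submitters' processing notes are GRCm39, HISAT2, Subread and featureCounts. For versions, annotation release, strand and multi-mapping settings, the answer is not given in the sources used here. Symbols (52029 of 57010 identifiers) and exon lengths came from GENCODE M21 on GRCm38, and promoter windows from RefSeq on GRCm38.p6. No coordinates of the counts' assembly are given.

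Genes were kept by filterByExpr (minimum count 10, minimum total 15), scaled by TMM and compared with edgeR 4.0.16 in R 4.3.3 (glmQLFit and glmQLFTest, group as the only term, two-sided), with Benjamini-Hochberg adjustment over all 16439 genes and a threshold of 0.05. Intervals come from the same fit. The coefficient of biological variation shared by all genes was 0.166. The script was tested on simulated data. DESeq2 1.42.0 was an alternative. Others were library size scaling, no filter, a mean of at least 5 CPM, a sex term, the replicate block and leaving out each library. Log2 CPM used a prior count of 2.

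Members, lists and tests were chosen with earlier results of these data known. The Irf genes were always named. From each pathway list up to 4 genes of smallest p were named, from each set of markers the 3 highest in level at most, and for the 5 more variable Irf genes the 3 nearest patterns. Tlr7, Rtp4, Batf, Junb, Ifngr2, Nr4a1, Egr2 and the genes with few or no reads were named after seeing their values. Replicates of a group differed by more than sampling noise, at a chi-square per gene from 16.0 to 40.4 in 12177 genes. Between a WT and a KO library it ran from 19.2 to 60.7. Some genes of the family and its lists are not reported here.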

Additional observations from a re-analysis of the deposited data

How the results depend on the processing

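Over 12 alternatives the log2 fold changes of Irf1, Irf2, Irf3, Irf5, Irf7 and Irf9 kept their direction, from 0.58 to 1.02 for Irf7 and from 0.20 to 0.34 for Irf9. Irf7 passed in 2 of them, without a filter on low counts and without KO 3. With 1 library left out, Irf4 ran from -0.35 to 0.043 and Irf8 from -0.24 to 0.0072, each turning direction without KO 3. The Irf4 to Irf8 difference ran from -0.11 to 0.034, above 0 without WT 3 or KO 3, the Irf7 to Irf3 difference from 0.57 to 1.18 and the Irf1 to Irf2 difference from -0.15 to -0.048. Over all genes edgeR called 2, against 142 with DESeq2, 511 without a filter on low counts, 6 with the sex term and between 2 and 80 with 1 library left out, the 80 being without KO 3. The number of Irf genes called was 1 without a filter and between 0 and 1 with 1 library left out. The causes were not tested. The list medians were recomputed by a choice made after the data were seen. With library size scaling those of the interferon and receptor (0.026 to -0.043), sensing (0.049 to -0.018) and partner genes (0.035 to -0.032) turned, and that of the signalling genes went from 0.069 to 0.0020. The interferon and receptor median was also below 0 without WT 1 (-0.031), WT 2 (-0.056) or KO 3 (-0.068), and that of the partners without WT 1 (-0.016). Without KO 2 the IRF1-linked median was 0.017. All 24 interferon-stimulated genes were higher in each of the 12 alternatives.

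Libraries with the same replicate number were not the most alike, and the labels do not say whether the numbers pair samples. Deviations of WT and KO libraries with the same number correlated at 0.082, -0.53 and -0.18, and no library correlated best with the library of its own number. The best partners were WT 3 with KO 2 (0.69, both female), WT 2 with KO 1 (0.56) and WT 1 with KO 3 (0.29). What these libraries share was not tested. The replicate block left 2 genes and 0 Irf genes called, with a log2 fold change of 0.67 for Irf7. Depth limits Irf5 most, at as few as 211 reads in a library.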
